A study of Mus musculus with 11 samples.

Results

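Microglia, the macrophages that live in the brain, were taken from adult mice, cultured and given the TLR2 agonist Pam3CSK4, interferon-γ (IFN-γ), both agents or neither. For each gene the question was whether the response to both agents differed from the sum of the responses to each alone. The 4 groups form a 2 by 2 design, and all 11 of the 11 libraries of the series enter it. The quantity tested was the interaction, the Pam3CSK4 effect in the presence of IFN-γ minus the Pam3CSK4 effect in its absence, on log2 counts. A positive value (more than additive) means that the level after both agents was above the Control level multiplied by both single fold changes, and a negative value (less than additive) that it was below. Of the 34745 genes in the deposited table, the 10938 with at least 1 FPKM (the deposited expression level, scaled for gene length and library total) in at least 2 libraries were tested. Each called gene was also placed by its mean FPKM in the group given both agents, as above both single treatments, between them or below both.

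All 4 groups share their source and medium: cerebral microglia of C57BL/6 mice, 6 to 8 weeks old, kept in culture for 10 to 14 days in medium that held 5 ng/ml TGF-β1 and 10 ng/ml M-CSF. The Control group (n = 3) received neither agent. Pam3CSK4, a synthetic triacylated lipopeptide, was used at 100 ng/ml for 24 h (n = 2), and IFN-γ at 20 ng/ml for 24 h (n = 3). The combined group (n = 3) received Pam3CSK4 for 24 h, followed by IFN-γ for 24 h. The labels do not say whether the cells given Pam3CSK4 alone were collected at the end of the first or of the second 24 h, so time since the agonist may differ between these groups. In 1 label field the agonist's name ends in another digit for combined replicates 2 and 3, which were taken as the same treatment. The labels do not say whether replicates came from separate animals or cultures, so p-values measure the spread between these libraries, which may be technical.

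TLR2, paired with TLR1 or TLR6, senses bacterial lipopeptides and signals through MyD88 to NF-κB and MAP kinases, which switch on cytokine and chemokine genes. IFN-γ signals through its receptor and the kinases JAK1 and JAK2 to factors that bind GAS elements, and raises IRF1, which acts on ISRE elements of antiviral and antigen presentation genes. In macrophages the 2 pathways are known to enhance each other at some genes and to oppose each other at others, and microglia in the resting brain hold both sets of genes low.

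The promoters of 4 genes show the letters through which the 2 pathways are known to act. They are the 250 bases before the RefSeq gene start on GRCm38.p6, 5′ to 3′ in the direction of the gene, with matches to a GAS motif (TTCNNNGAA), an ISRE core (GAAA, any 2 bases and GAAA again) or the kB motif of NF-κB in capitals, all searched on both strands and each able to overlap another. Cxcl10 (chr5:92348890-92349139, minus strand) holds an ISRE core and 3 kB matches, of which 2 overlap; Sod2 (chr17:13007589-13007838, plus strand) holds a GAS and a kB match. Socs1 (chr16:10785537-10785786, minus strand) holds 2 overlapping ISRE cores. Irf1 (chr11:53769764-53770013, plus strand) holds a GAS and a kB match. Cxcl10 and Sod2 were less than additive with the combined group above both single treatments, Socs1 was less than additive with the combined group between them, and Irf1 was not called.
Cxcl10: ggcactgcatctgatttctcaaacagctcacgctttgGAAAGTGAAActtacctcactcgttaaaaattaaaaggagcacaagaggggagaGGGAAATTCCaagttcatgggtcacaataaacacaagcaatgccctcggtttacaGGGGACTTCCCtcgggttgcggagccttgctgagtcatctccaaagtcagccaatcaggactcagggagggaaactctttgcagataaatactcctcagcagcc
Sod2: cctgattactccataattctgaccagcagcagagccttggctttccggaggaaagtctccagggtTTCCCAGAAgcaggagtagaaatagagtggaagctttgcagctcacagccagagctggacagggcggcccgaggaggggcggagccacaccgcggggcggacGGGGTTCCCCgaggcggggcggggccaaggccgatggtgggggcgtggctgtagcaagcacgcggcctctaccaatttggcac
Socs1: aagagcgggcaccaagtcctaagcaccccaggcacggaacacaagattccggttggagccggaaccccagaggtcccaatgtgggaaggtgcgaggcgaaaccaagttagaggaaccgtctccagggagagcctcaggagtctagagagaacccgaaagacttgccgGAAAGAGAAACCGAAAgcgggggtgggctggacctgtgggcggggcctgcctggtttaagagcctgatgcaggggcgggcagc
Irf1: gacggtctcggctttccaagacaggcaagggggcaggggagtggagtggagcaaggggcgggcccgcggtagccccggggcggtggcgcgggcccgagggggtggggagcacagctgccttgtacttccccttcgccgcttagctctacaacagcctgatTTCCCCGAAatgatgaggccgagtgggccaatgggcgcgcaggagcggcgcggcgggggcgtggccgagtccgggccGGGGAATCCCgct
The 4 genes were picked from 41 named genes with a promoter entry, and all 4 hold matches. Other named genes held none, among them Il1b, Il1a, Tnf, Cxcl9, Acod1 and H2-Eb1. Such matches are not rare. Over the 27025 genes of the table with a promoter entry, 7.11% held a GAS match, 3.06% an ISRE core and 7.07% a kB match in these 250 bases, and over the 8092 tested genes with an entry 5.99%, 2.92% and 8.72%. Among 573 less than additive genes (those of the naming rule with an entry), 7.33% held a GAS match, 7.16% an ISRE core and 11.5% a kB match; among 377 more than additive genes the shares were 5.57%, 1.86% and 9.02%. The 73 less than additive genes whose combined group lay above both single treatments held a GAS match in 12.3%, an ISRE core in 13.7% and a kB match in 24.7%. For the 110 more than additive genes in that position the shares were 4.55%, 2.73% and 10.9%. This split by position was chosen after the values were seen. These shares were not tested, and a match is a description of letters and not evidence of binding.

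Depth was 15033702 to 20321017 counts per library, with 15730 to 18185 genes with a count. The combined libraries were the deepest, at 19529707 to 20321017 counts, against 15033702 to 18687401 in the other groups. Microglial and macrophage markers were high everywhere, with 8 markers summing to 2166 to 7264 FPKM. Markers of mural cells and fibroblasts stood apart in 3 libraries: 12 such genes summed to 2262 FPKM in Control replicate 3, 122.2 in IFN-γ replicate 1 and 55.8 in combined replicate 3, against 1.16 to 3.90 in the other 8 libraries. The 8 of these genes that were tested had a median interaction of 6.38, and none was called by edgeR. The same libraries also stood out for markers of other brain cells. The 8 astrocyte markers summed to 32.7 FPKM in Control replicate 3 and to 1.73 to 5.02 in the other libraries. The 8 neuronal markers summed to 6.94 FPKM in Control replicate 3, 10.8 in IFN-γ replicate 1 and 3.59 in combined replicate 3. In the other libraries the neuronal sum was 0.0944 to 0.474 FPKM. Some markers of oligodendrocytes, endothelium and lymphocytes (Mog, Mobp, Cldn5, Cd3e, Cd3g and Nkg7) were at 0 in every library, but their lists were not. The 8 oligodendrocyte markers summed to 4.59 to 6.59 FPKM. The 8 endothelial markers summed to 18.55 to 40.2 FPKM in Control and 24.3 to 30.3 with IFN-γ. In the Pam3CSK4 and combined groups they summed to 3.49 to 6.11 FPKM, and 1 of the 4 tested was more than additive. Genes of the other immune cell list summed to 12.8 to 18.7 FPKM in the combined group and to 3.96 to 9.53 elsewhere, and 1 of the 2 tested was less than additive. In bulk RNA, fewer cells of a type and less RNA per cell cannot be told apart.

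Non-additive responses were frequent and evenly split. At an adjusted p under 0.05 in edgeR's quasi-likelihood test, 876 genes were more than additive (8.01% of those tested) and 876 less than additive (8.01%), together 16.0%. The median interaction was 1.01 in the first class and -0.85 in the second, against 0.06 over all genes tested, and 451 and 335 genes reached a size of 1. Without Control replicate 3, the library with the most mural and fibroblast transcripts, 1656 and 1576 genes were called, among them 875 and 873 of those above; the part of these transcripts in the interaction of other genes was not tested. The total of 1752 calls fell to 664 without Pam3CSK4 replicate 2, 1048 without Pam3CSK4 replicate 1, 993 without combined replicate 1 and 1052 without combined replicate 2, and leaving out IFN-γ replicate 3 took the less than additive count alone to 567. The threshold separated near neighbours: Firre (0.79, adjusted p = 0.04992) and Cnp (-0.88, 0.04992) lay just inside it, and Papd7 (-0.56, 0.05003) and Snrpd3 (-0.66, 0.05003) just outside.

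**Figure D1:**
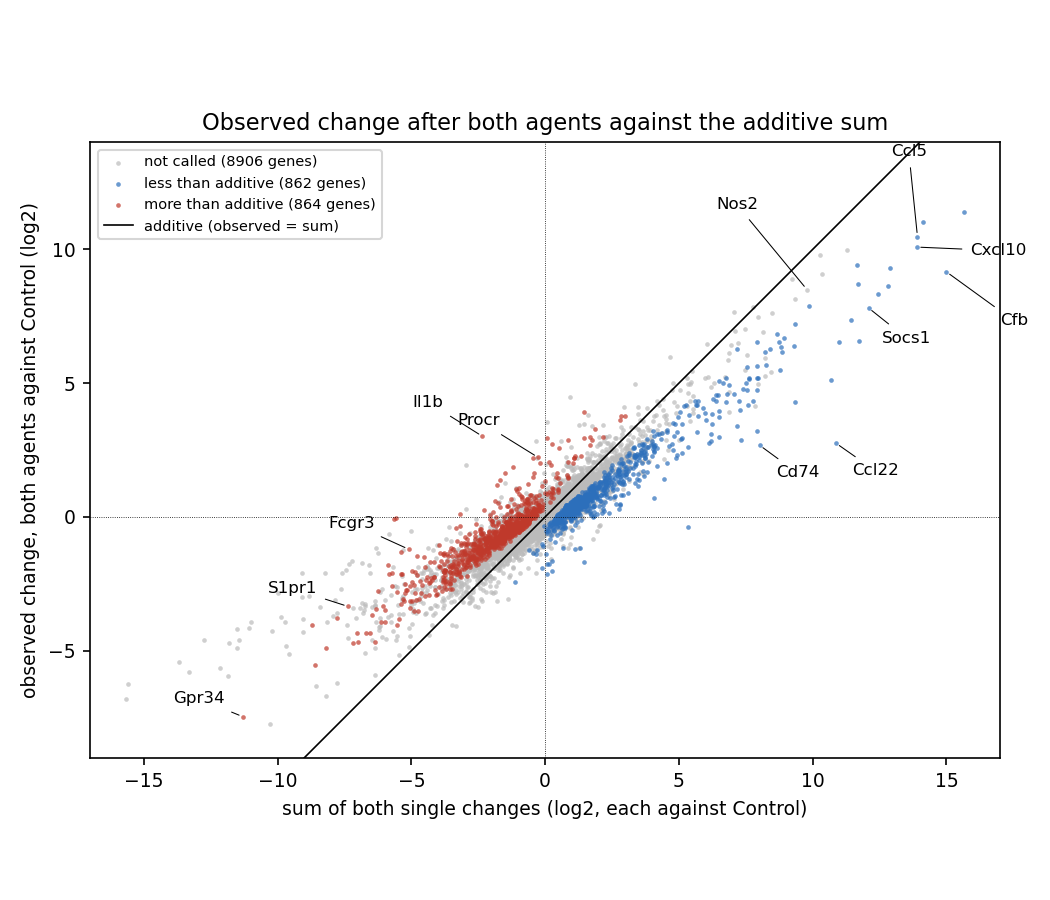
Each point is 1 of 10632 tested genes with at least 10 counts in every group; the x axis is the sum of the Pam3CSK4 and IFN-γ effects against Control (log2) and the y axis the observed effect of both agents against Control (log2). The 864 more than additive genes (red) lie above the line of equality, mostly where the sum is negative, and the 862 less than additive genes (blue) below it, mostly where the sum is positive.

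More than additive did not mean a high level after both agents. Of the 876 more than additive genes, the combined mean exceeded both single means in 272 (31.1%), lay between them in 451 (51.5%) and was below both in 153 (17.5%). Over all genes tested the shares were 16.0% above, 52.6% between and 31.4% below. In 729 of the 876 (83.2%) the combined mean was below the Control mean, which held for 59.4% of all genes tested. The interaction and the position both use the combined group, so sign and position are not independent. Of all 5963 tested genes with a positive interaction, called or not, 20.9% lay above both, 56.2% between and 22.9% below both. Of the 5963, 75.6% lay below the Control mean.

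Less than additive genes lay below both single treatments more often than above them, as did genes with a negative interaction as a whole. Here 113 of 876 genes (12.9%) had a combined mean above both single treatments, 381 (43.5%) between and 382 (43.6%) below, and 140 (16.0%) lay below Control. Of all 4975 tested genes with a negative interaction, called or not, 10.1% lay above both, 48.3% between and 41.6% below both. Of the 4975, 40.1% lay below Control. The called shares above and below both were thus close to those of their sign. By the stricter criterion that every combined library lay above every library of both single treatments, 118 more than additive and 77 less than additive genes qualified, where 5.43% of all genes tested did. These were 13.5% and 8.79% of each class, against 6.07% and 4.66% of all genes with a positive and a negative interaction. Every combined library lay below every single-treatment library for 55 and 213 genes, where 10.7% of all genes tested did. These were 6.28% and 24.3% of each class, against 6.26% and 16.1% of all genes with that sign. In edgeR's tests of the combined group against each single treatment, 45 more than additive and 32 less than additive genes were higher than both. Lower than both were 11 and 25. Of all 5963 tested genes with a positive interaction, called or not, 82 were higher than both and 32 lower. Of the 4975 with a negative interaction, 63 were higher than both and 53 lower. Each test taken singly called more: 6.06% of all genes tested were higher and 3.04% lower than with Pam3CSK4. Against IFN-γ, 17.0% were higher and 17.2% lower. On the linear FPKM scale, the combined mean exceeded the Control mean plus both single changes for 854 more than additive genes and 34 less than additive genes, and for 52.8% of all genes tested. The 854 and 34 were 97.5% and 3.88% of their classes. Among all genes with a positive and a negative interaction the shares were 91.7% and 6.15%.

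**Figure D2:**
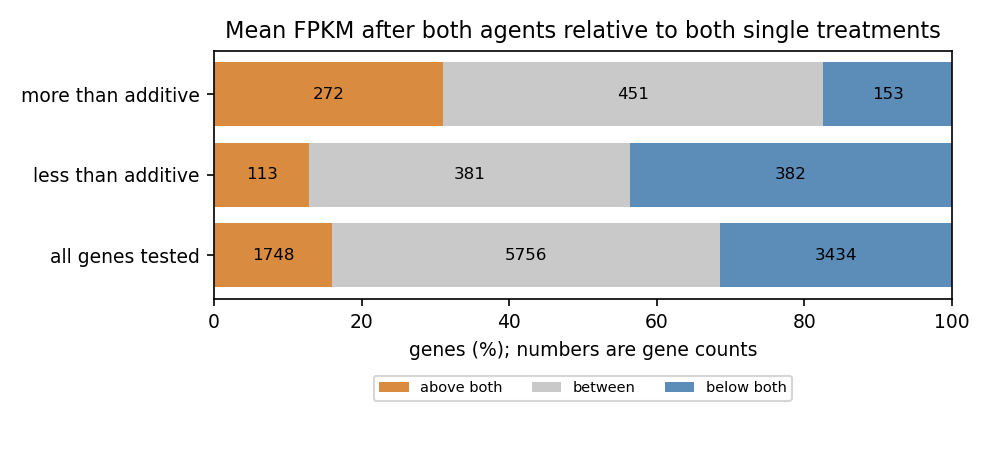
Bars give the percentage of genes whose mean FPKM after both agents was above, between or below the means of both single treatments, for the 876 more than additive, the 876 less than additive and all 10938 genes tested. Above both was the position of 272 more than additive and 113 less than additive genes.

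The interleukin-1 genes were more than additive and highest after both agents. Il1b (chr2:129364570-129371139 on mm10, as are the gene positions that follow), which encodes the inflammasome-processed cytokine IL-1β, had FPKM values of 19.6, 22.7 and 36.7 in the Control libraries, 54.2 and 65.7 with Pam3CSK4, 2.43, 1.55 and 2.25 with IFN-γ and 217, 212 and 160.2 with both. IFN-γ thus lowered it when given alone, and all 3 combined libraries lay above every other library. The interaction of Il1b was 5.36 ± 0.37 (log2 ± standard error, adjusted p = 7.24e-05). The Control mean multiplied by both single fold changes gives 4.73 FPKM, and the combined mean was 196. Il1a (chr2:129299610-129309972), the neighbouring gene for the alarmin IL-1α, had FPKM values of 6.44, 5.99 and 7.33 in Control, 31.7 and 29.9 with Pam3CSK4, 3.81, 3.01 and 3.93 with IFN-γ and 96.3, 101 and 82.2 with both. Again the combined libraries did not overlap any other group, and the interaction was 2.48 ± 0.19 (adjusted p = 0.000101). Both interactions held without each library in turn, between 5.13 and 5.52 for Il1b and between 2.37 and 2.58 for Il1a.

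Cd14, Dusp4 and Abca1 were genes that IFN-γ alone lowered. Cd14, the coreceptor that hands bacterial lipids to TLR2 and TLR4, read 353, 325 and 578 FPKM in Control, 689 and 745 with Pam3CSK4, 107, 45.9 and 56.5 with IFN-γ and 1144, 1086 and 810.0 with both. Its IFN-γ effect alone was -2.47 ± 0.31 (adjusted p = 0.000256), while the combined libraries were above all others, and the interaction was 3.08 ± 0.46 (adjusted p = 0.00317). Dusp4, a phosphatase that switches off MAP kinases, read 6.97, 6.92 and 6.85 FPKM in Control, 33.2 and 33.9 with Pam3CSK4, 2.44, 1.58 and 1.79 with IFN-γ and 39.99, 35.1 and 39.95 with both, with an interaction of 2.04 ± 0.20 (adjusted p = 0.000446). Its combined mean was only 1.14 times the Pam3CSK4 mean, a difference that edgeR did not call (adjusted p = 0.277). The cholesterol exporter Abca1 had the same order of groups, at 17.1, 17.4 and 18.2 FPKM in Control, 33.8 and 26.5 with Pam3CSK4, 4.796, 5.58 and 4.44 with IFN-γ and 40.3, 33.7 and 30.5 with both. Its interaction was 2.05 ± 0.20 (adjusted p = 0.000437), and the combined and Pam3CSK4 libraries overlapped. For these 3 genes edgeR called the IFN-γ effect in the absence of Pam3CSK4 and not in its presence.

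Procr and Slc7a2 rose well above both single treatments. Procr (chr2:155751117-155755471), the endothelial protein C receptor, read 18.3, 19.2 and 20.04 FPKM in Control, 11.9 and 16.5 with Pam3CSK4, 22.9, 17.1 and 20.9 with IFN-γ and 86.4, 83.7 and 81.9 with both. Neither agent alone raised it (Pam3CSK4 gave -0.45 ± 0.16, adjusted p = 0.0455) and every combined library was above 80 FPKM, so that the combined mean was 4.14 times the higher single mean and the interaction 2.49 ± 0.21 (adjusted p = 0.000249). Slc7a2, which imports arginine, the substrate of nitric oxide synthesis, read 1.1, 0.906 and 1.21 FPKM in Control, 3.04 and 2.93 with Pam3CSK4, 2.65, 2.83 and 2.31 with IFN-γ and 14.8, 13.9 and 12.2 with both. Each agent raised it, the combined mean was 4.57 times the higher single mean, and the interaction was 0.92 ± 0.16 (adjusted p = 0.00668). Hspa4l, a member of the HSP110 chaperone family, changed with neither agent past the threshold, at 1.41, 1.57 and 2.51 FPKM in Control, 2.13 and 1.77 with Pam3CSK4 and 2.09, 1.95 and 1.46 with IFN-γ, and reached 6.85, 6.55 and 5.99 with both. Its interaction was 1.72 ± 0.27 (adjusted p = 0.00372). Clec4n, the fungal receptor dectin-2, reached 88.6, 83.3 and 88.6 FPKM with both agents against 24.3 and 23.7 with Pam3CSK4 and 32.2, 19.5 and 25.9 with IFN-γ. The combined libraries did not overlap the others, but the interaction of Clec4n, 1.01 ± 0.29 (adjusted p = 0.0455), was lost in 8 of the 11 fits that left out a library (Control replicate 1, either Pam3CSK4 replicate, IFN-γ replicate 2 or 3, or any combined replicate; adjusted p up to 0.151). Sesn2, a stress-induced regulator of mTORC1, was called at 0.78 ± 0.22 (adjusted p = 0.0389) with a combined mean 1.04 times the Pam3CSK4 mean, and of the 11 fits without a library only those without Control replicate 2, Control replicate 3 or IFN-γ replicate 3 kept its call (adjusted p up to 0.121).

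More than additive also described genes that both agents brought down from a higher Control level. Gpr34, a lysophosphatidylserine receptor of resting microglia, read 76.6, 103 and 49.8 FPKM in Control, 0.614 and 0.444 with Pam3CSK4, 3.83, 5.45 and 3.43 with IFN-γ and 0.354, 0.402 and 0.471 with both. Its level after both agents overlapped that after Pam3CSK4 alone, and the interaction of 3.83 ± 0.50 (adjusted p = 0.00169) measured how far it stayed above the product of both falls. S1pr1, a receptor for sphingosine 1-phosphate, read 92.3, 94.8 and 68.03 FPKM in Control, 8.595 and 7.46 with Pam3CSK4, 6.31, 4.95 and 4.52 with IFN-γ and 8.04, 8.35 and 7.31 with both. The 3 treated groups lay close together, under every Control library, and the interaction was 4.02 ± 0.29 (adjusted p = 8.38e-05). The transcription factor gene Sox4 fell from 17.1, 20.3 and 24.9 FPKM in Control to 1.63 and 1.28 with Pam3CSK4, 2.46, 0.737 and 0.553 with IFN-γ and 1.28, 1.13 and 1.79 with both (interaction 4.01 ± 0.71, adjusted p = 0.0065). Baiap2l2, which encodes a membrane-bending adaptor of the actin cortex, read 12.1, 14.5 and 4.83 FPKM in Control, 5.08 and 4.46 with Pam3CSK4, 0.0503, 0.0782 and 0.0277 with IFN-γ and 0.662, 0.7297 and 0.438 with both. IFN-γ took it lower alone than after Pam3CSK4, with an interaction of 4.66 ± 0.74 (adjusted p = 0.0042).

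Fcgr3 and Hes1 fell steeply with Pam3CSK4 alone and less so where IFN-γ followed. Fcgr3 (chr1:171051174-171064935), a low-affinity receptor for IgG, read 174, 162 and 135 FPKM in Control, 2.08 and 1.73 with Pam3CSK4, 371, 342 and 368 with IFN-γ and 63.99, 62.3 and 66.3 with both. No groups overlapped: the combined libraries were 33.7 times the Pam3CSK4 mean and 0.178 times the IFN-γ mean. Its interaction was 3.89 ± 0.22 (adjusted p = 2.99e-05). Hes1, a repressor induced by Notch, read 5.44, 3.82 and 9.45 FPKM in Control, 0.229 and 0.293 with Pam3CSK4, 3.94, 1.42 and 1.51 with IFN-γ and 1.51, 1.48 and 1.97 with both. IFN-γ lowered Hes1 alone (-1.33 ± 0.41, adjusted p = 0.0262) and raised it after Pam3CSK4 (2.76 ± 0.53, adjusted p = 0.0115), which gave an interaction of 4.09 ± 0.67 (adjusted p = 0.0047).

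Of 32 homeostatic microglial genes, all tested, 10 were more than additive and 1 less than additive. None had a combined mean above both single treatments and 16 lay below both. Over all genes tested, 8.01% were called in each direction, 16.0% lay above both and 31.4% below both. Besides Gpr34, the 10 included the phagocytic receptor Mertk (2.84) and its ligand Gas6 (2.74), the sugar transporter Slc2a5 (3.27), the ectonucleotidase Entpd1 (2.28), the purinergic receptor P2ry13 (1.80), the chemokine receptor Cx3cr1 (0.90) and the transcription factors Maf (1.35) and Sall1 (1.08), each value an interaction in log2. Gpr84, a receptor for medium-chain fatty acids, was the less than additive member (-1.80). The list's median interaction was 0.46, against 0.06 over all genes tested. Leaving out Control replicate 3 raised the more than additive count to 19, and the 10 other fits without a library gave 7 to 9. P2ry12, the purinergic receptor used to identify microglia, was not called (0.93 ± 0.54, adjusted p = 0.273) at 12.6, 37.3 and 16.8 FPKM in Control, 1.704 and 1.32 with Pam3CSK4, 15.2, 18.03 and 14.4 with IFN-γ and 2.05, 1.85 and 2.14 with both. Tmem119, another such marker, was at 131, 111 and 74.3 FPKM in Control, 53.1 and 61.7 with Pam3CSK4, 23.6, 14.2 and 14.7 with IFN-γ and 16.03, 13.9 and 17.2 with both. Its interaction was 0.75 ± 0.39 (adjusted p = 0.215) with all libraries and 0.99 (adjusted p = 0.0276) without Control replicate 3.

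Chemokines that attract T cells rose with each agent and were less than additive, Cxcl10 and Ccl5 with their highest level after both and Cxcl9 with its highest level after IFN-γ. Cxcl10 (chr5:92346638-92348889), a ligand of CXCR3, read 0.461, 0.464 and 0.703 FPKM in Control, 47.2 and 42.2 with Pam3CSK4, 100.5, 73.2 and 107 with IFN-γ and 572, 575 and 507 with both. The combined mean was 5.89 times the higher single mean, and the mean FPKM exceeded the Control mean plus both single changes by 414. Yet the product of both fold changes would give 7703 FPKM against the 551 observed, and the interaction was -3.80 ± 0.25 (adjusted p = 5.30e-05). Ccl5 (chr11:83525778-83530518), another T cell chemokine, read 2.66, 1.79 and 4.096 FPKM in Control, 1172 and 1105 with Pam3CSK4, 96.03, 96.6 and 113 with IFN-γ and 3792, 4010.3 and 3504 with both. Its combined mean was 3.31 times the Pam3CSK4 mean, with an interaction of -3.44 ± 0.30 (adjusted p = 0.000249). Cxcl9, the CXCR3 ligand most specific to IFN-γ, differed in position: 0.347, 0.504 and 0.463 FPKM in Control, 2.096 and 2.31 with Pam3CSK4, 1331, 1483 and 1564 with IFN-γ and 861, 864 and 838 with both. Every combined library was below every IFN-γ library (-0.78 ± 0.12 against IFN-γ, adjusted p = 0.00121) although Pam3CSK4 alone raised Cxcl9 (2.31 ± 0.16, adjusted p = 8.01e-06), and the interaction was -3.09 ± 0.20 (adjusted p = 5.30e-05).

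Cd40, Fpr2, Cd274 and Cd69 were less than additive, with all combined libraries above all others. Cd40, the receptor through which T cells activate macrophages, read 0.601, 0.423 and 0.687 FPKM in Control, 11.3 and 11.3 with Pam3CSK4, 7.43, 6.898 and 9.44 with IFN-γ and 41.1, 40.5 and 34.3 with both. All 3 combined libraries were above 34 FPKM and every single-treatment library under 12, and the interaction was -2.02 ± 0.25 (adjusted p = 0.00119). Fpr2, a formyl peptide receptor, read 1.91, 1.35 and 0.803 FPKM in Control, 52.6 and 60.9 with Pam3CSK4, 23.6, 16.6 and 20.8 with IFN-γ and 180.3, 200.3 and 191 with both (interaction -2.14 ± 0.40, adjusted p = 0.0084). Cd274, which encodes the checkpoint ligand PD-L1, read 30.5, 30.3 and 22.4 FPKM in Control, 112 and 102 with Pam3CSK4, 197, 232 and 215 with IFN-γ and 370.4, 354 and 325 with both. Its combined mean was 1.63 times the IFN-γ mean (0.70 ± 0.16 against IFN-γ, adjusted p = 0.00956) and its interaction -1.22 ± 0.24 (adjusted p = 0.0107). Cd69, an early activation antigen, reached 29.2, 28.9 and 32.5 FPKM with both agents from 23.5 and 18.1 with Pam3CSK4, 9.81, 11.1 and 12.1 with IFN-γ and 0.272, 0.534 and 0.228 in Control (interaction -4.44 ± 0.42, adjusted p = 0.000346). Among 20 tested genes of costimulation, checkpoints and pattern recognition, 6 were less than additive (3 above both single treatments: Cd40, Cd274 and Slamf7) and 1, Vsir, more than additive; without Control replicate 3 the counts were 7 and 3, and without either Pam3CSK4 replicate 6 and 0.

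Acod1, Sod2, Cfb and Tnf were also less than additive and highest after both agents. Acod1, which makes itaconate, read 6.97, 6 and 6.32 FPKM in Control, 393 and 372 with Pam3CSK4, 293, 255 and 304 with IFN-γ and 967, 1014 and 1015 with both. Its combined mean was 2.61 times the Pam3CSK4 mean, and the interaction was -4.07 ± 0.16 (adjusted p = 3.90e-06). Sod2, the mitochondrial superoxide dismutase, read 17.4, 17.3 and 21.4 FPKM in Control, 221 and 238 with Pam3CSK4, 69.2, 64.9 and 72.7 with IFN-γ and 344, 370.1 and 339 with both (interaction -1.27 ± 0.13, adjusted p = 0.000598). Cfb (chr17:34856374-34862518), factor B of the alternative complement pathway, rose from 0.208, 0.184 and 0.0465 FPKM in Control to 15.9 and 26.3 with Pam3CSK4, 28.5, 30.6 and 34.2 with IFN-γ and 82.9, 73.5 and 79.9 with both. The combined libraries of Cfb were all above 70 FPKM and all others under 35, and the interaction was -5.83 ± 0.54 (adjusted p = 0.000317). Tnf read 9.46, 6.29 and 4.58 FPKM in Control, 249.6 and 265 with Pam3CSK4, 42.4, 35.9 and 46.7 with IFN-γ and 311, 313 and 330.0 with both, so that the combined libraries were above all others by a small step that edgeR did not call against Pam3CSK4 (0.41 ± 0.28, adjusted p = 0.449). Its interaction was -2.29 ± 0.37 (adjusted p = 0.00447).

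Over the 29 tested cytokines and chemokines, 5 were more than additive (Il1b, Il1a, the chemokines Ccl3 and Ccl4, and Osm of the IL-6 family) and 7 less than additive (Ccl22, Cxcl10, Ccl5, Cxcl9, Il27, Tnf and Ccl12). The median interaction was 0.21, and -1.33 without Control replicate 3. A combined mean above both single treatments was found for 11 of the 29. Over all genes tested, 16.0% lay above both, and 8.01% were called in each direction. Of 24 genes of nitric oxide, arginine and the oxidative burst, 4 were more than additive (Slc7a2, the cystine importer Slc7a11, and Gclc and Srxn1 of glutathione synthesis and peroxiredoxin repair) and 3 less than additive (Acod1, Sod2 and the NADPH oxidase subunit Cybb), with a combined mean above both single treatments in 12. Without Control replicate 3 the 3 became 9, and without Pam3CSK4 replicate 2 the 4 became 2. Of 21 complement and Fc receptor genes, Fcgr3 and C3ar1 were more than additive and Cfb and C3 less than additive. For this list both counts are near the 8.01% of all genes tested that were called in each direction. Without Control replicate 3 the less than additive count of that list was 8, and in the 10 other fits without a library it was 2 or 3; the more than additive count was 1 without either Pam3CSK4 replicate, IFN-γ replicate 2 or 3, or any combined replicate.

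**Figure D3:**
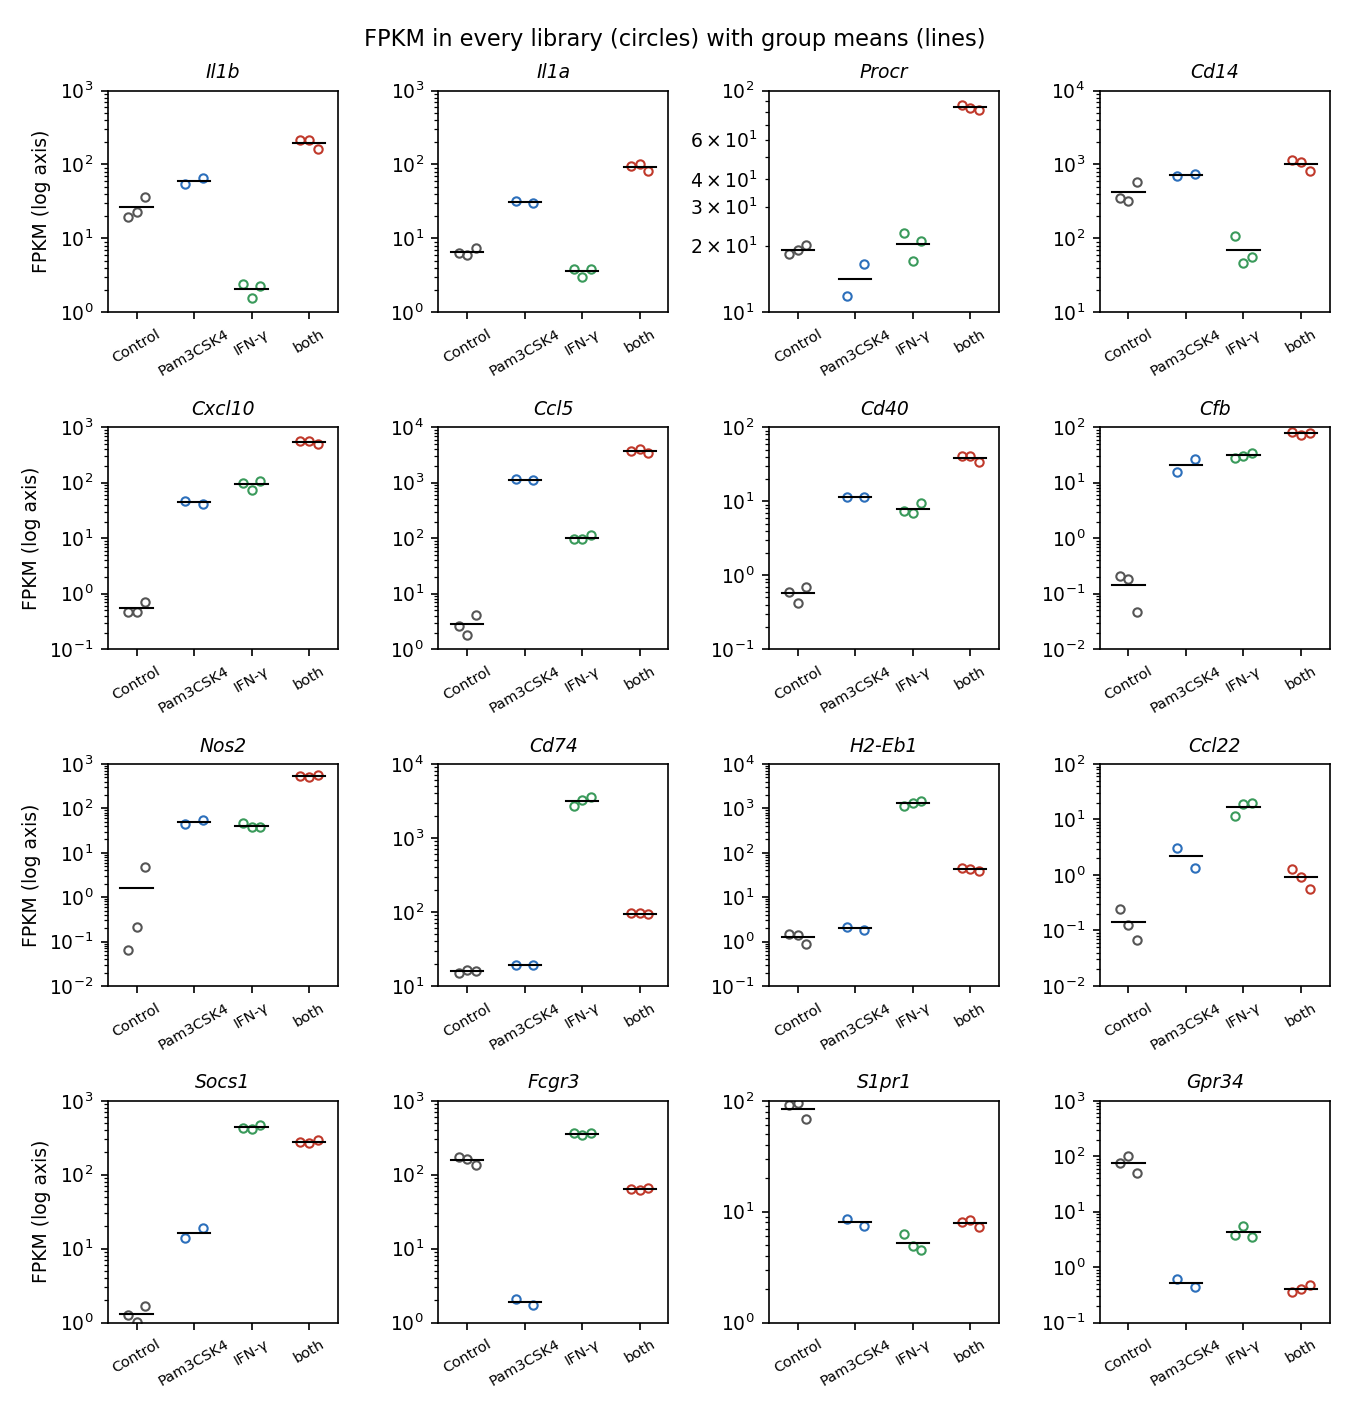
FPKM (log axis, a different range in each panel) of 16 genes in every library (circles) by group, with lines at the group means. Il1b, Il1a, Procr, Cd14, Cxcl10, Ccl5, Cd40, Cfb and Nos2 were highest in all 3 combined libraries; Cd74, H2-Eb1, Socs1 and Fcgr3 were highest with IFN-γ, as was Ccl22; S1pr1 and Gpr34 were highest in Control.

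Interferon-stimulated antiviral genes were less than additive where they were called. Of 32 tested, 20 were less than additive and none more than additive, and in 16 of the 20 the combined mean lay above both single treatments. That position was held by 12.9% of all less than additive genes. Zbp1, a sensor of Z-form nucleic acids, read 2.26, 1.86 and 1.43 FPKM in Control, 14.4 and 17.7 with Pam3CSK4, 47.9, 52.3 and 52.9 with IFN-γ and 63, 62.9 and 64.2 with both. The step above IFN-γ was small and not called (0.30 ± 0.18, adjusted p = 0.223), and the interaction was -2.79 ± 0.27 (adjusted p = 0.000394). Usp18, which restrains interferon receptor signalling, read 2.06, 3.06 and 1.67 FPKM in Control, 24.99 and 24.98 with Pam3CSK4, 16.1, 17.9 and 19.1 with IFN-γ and 26.1, 26.98 and 33.3 with both (interaction -2.74 ± 0.33, adjusted p = 0.00119). Other called members were Irf7 (-2.52), Isg15 (-2.47), Oasl1 (-2.73), Ifit1 (-2.48) and Ifit2 (-1.83). Pam3CSK4 alone raised 31 of the 32 and IFN-γ alone 32; the background was 20.0% of tested genes for each. The list's median interaction was -1.26. The count of 20 became 30 without Control replicate 3, 9 without Pam3CSK4 replicate 2, 12 without Pam3CSK4 replicate 1 and 11 without combined replicate 1.

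Class I antigen presentation moved in the same direction. Of 20 tested genes, 13 were less than additive and none more than additive, 6 of them with a combined mean above both single treatments. H2-Q6, a nonclassical class I gene, read 3.94, 6.62 and 3.39 FPKM in Control, 55.1 and 49.7 with Pam3CSK4, 81.04, 97.9 and 113 with IFN-γ and 129.5, 120.4 and 107 with both (interaction -3.18 ± 0.39, adjusted p = 0.00119). Its close relative H2-Q7 gave 45.4, 39.4 and 33.6 FPKM with both agents against 19.7, 26.4 and 31.95 with IFN-γ, and an interaction of -3.29 ± 0.46 (adjusted p = 0.00229). Reads shared between such near-identical genes may have been split, and how the submitters counted them is not given in the sources used here; the same applies to the Gbp, Tgtp, Ifit and Bcl2a1 families. The transporter subunit Tap1 (-1.39), the immunoproteasome subunits Psmb8 (-1.60) and Psmb9 (-1.10) and the class I regulator Nlrc5 (-1.58) were also called. The list's median was -1.12, and the count was 17 without Control replicate 3 and 9 to 15 in the other fits without a library.

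Cd74 and the genes of the class II molecules I-A and I-E rose with IFN-γ and were far lower where Pam3CSK4 was also given. Cd74, the invariant chain, read 14.98, 16.5 and 16.1 FPKM in Control, 19.1 and 19.1 with Pam3CSK4, 2743, 3295 and 3582 with IFN-γ and 96.5, 96.5 and 92.5 with both. The combined mean was 0.0297 times the IFN-γ mean, and no groups of treated libraries overlapped. Its interaction was -5.34 ± 0.19 (adjusted p = 2.34e-06), between -5.46 and -5.22 without each library in turn. H2-Eb1 (chr17:34305877-34316199), the β chain of I-E, read 1.52, 1.44 and 0.896 FPKM in Control, 2.12 and 1.85 with Pam3CSK4, 1107, 1309 and 1455 with IFN-γ and 44.6, 43.1 and 39.7 with both (interaction -5.55 ± 0.33, adjusted p = 3.42e-05). H2-Aa, the α chain of I-A, read 0.935, 1.43 and 0.6105 FPKM in Control, 1.13 and 0.729 with Pam3CSK4, 572, 654 and 729 with IFN-γ and 19.4, 19.3 and 17.2 with both (interaction -5.02 ± 0.45, adjusted p = 0.00028). H2-Ab1, its β chain, was also lowered by Pam3CSK4 alone (-1.01 ± 0.17, adjusted p = 0.00132): it read 30.7, 33.4 and 25.9 FPKM in Control, 15.2 and 15.1 with Pam3CSK4, 885, 919 and 1081 with IFN-γ and 46.6, 46.95 and 44.5 with both. Its interaction was -3.39 ± 0.22 (adjusted p = 5.30e-05). Ciita, the coactivator on which class II transcription depends, had 1 count over both Pam3CSK4 libraries, so no interaction value is given; it read 0.03799, 0.0241 and 0.0532 FPKM in Control, 36.4, 50.9 and 43.8 with IFN-γ and 2.603, 2.37 and 2.23 with both. The difference between both agents and IFN-γ was -4.20 ± 0.20 (adjusted p = 7.36e-07).

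Of the 15 class II genes tested, 8 were less than additive and none more than additive; all 8 lay between the single treatments and none of the 15 above both. In edgeR's test, 13 of the 15 were lower with both agents than with IFN-γ alone (background 17.2%) and 9 were higher than with Pam3CSK4 (background 6.06%). The median combined mean was 0.18 times the higher single mean, against 0.72 for the GTPases below. Irf1, the interferon-induced factor upstream of many of these genes, was not called: it read 7.24, 6.58 and 6.18 FPKM in Control, 5.61 and 4.598 with Pam3CSK4, 135, 139 and 165 with IFN-γ and 82.5, 94.8 and 87.4 with both. The combined libraries of Irf1 were lower than those given IFN-γ (-0.74 ± 0.14, adjusted p = 0.00325), and the interaction was -0.33 ± 0.21 (adjusted p = 0.314).

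The interferon-induced GTPases, which attack the vacuoles of intracellular microbes, had 13 of 18 tested members less than additive and none more than additive, 11 of them between the single treatments. Iigp1 read 0.277, 0.08102 and 0.125 FPKM in Control, 1.19 and 1.77 with Pam3CSK4, 854, 933 and 751 with IFN-γ and 401, 388 and 435 with both, with an interaction of -4.25 ± 0.43 (adjusted p = 0.000493). Pam3CSK4 raised Iigp1 alone and lowered it in the presence of IFN-γ. Gbp2 read 0.917, 0.737 and 4.22 FPKM in Control, 15.3 and 14.5 with Pam3CSK4, 1652, 1639 and 1693 with IFN-γ and 711, 722 and 660.1 with both. Control replicate 3 stood above the other Controls, and the interaction was -4.22 ± 0.71 (adjusted p = 0.00516) with it and -5.36 (adjusted p = 1.97e-07) without it. All 18 were raised by IFN-γ alone and all 18 were higher with both agents than with Pam3CSK4, while 8 were lower than with IFN-γ. The median interaction of the list was -2.13, and the fits without a library gave 10 to 12 calls.

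Socs1 (chr16:10783808-10785536), the feedback inhibitor of JAK kinases, read 1.25, 1.04 and 1.69 FPKM in Control, 14.2 and 18.8 with Pam3CSK4, 430.5, 419 and 463 with IFN-γ and 276, 270.2 and 293 with both (interaction -4.28 ± 0.22, adjusted p = 1.32e-05). It was thus induced by each agent and lower after both than after IFN-γ (-0.65 ± 0.14, adjusted p = 0.00501). Of 21 tested genes of interferon receptor, JAK-STAT and IRF signalling, 5 were less than additive, among them Socs1, Stat2, Jak2 and Usp18, and the receptor chain Ifnar1 (0.66) was more than additive; the median was -0.33. Without Control replicate 3 the counts were 7 and 3, and without Pam3CSK4 replicate 2 they were 4 and 0. Of 33 TLR and NF-κB genes, Cd14, Dusp4 and the mRNA-decay factor Zfp36 (0.57) were more than additive. That count is near the 8.01% of all genes tested that were called in each direction. Less than additive were the NF-κB feedback genes Nfkbia (-0.80), Nfkbie (-0.83), Nfkb2 (-0.84) and Bcl3 (-1.28), with the adaptor Myd88 (-0.89) and the receptor Tlr1 (-1.05). The count of 6 was 0 without Pam3CSK4 replicate 2 and 2 to 4 without Control replicate 2, Pam3CSK4 replicate 1, IFN-γ replicate 1 or 3, or any combined replicate. The count of 3 became 7 without Control replicate 3 and 2 without any of 9 other libraries. Tlr2 itself read 239, 217 and 186 FPKM in Control, 352 and 299 with Pam3CSK4, 86.3, 71.6 and 82.7 with IFN-γ and 183, 179 and 145 with both. Its interaction was not called with all libraries (0.49 ± 0.24, adjusted p = 0.189), and was called without Control replicate 3 (0.62, adjusted p = 0.03) and without the 3 libraries that held mural and fibroblast transcripts (0.764, adjusted p = 0.00879).

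Il27, Tnfsf10, Anpep and Clec5a rose with IFN-γ and were lower where Pam3CSK4 was also given. Il27, the p28 chain of IL-27, read 0.717, 0.557 and 0.492 FPKM in Control, 1.34 and 1.26 with Pam3CSK4, 8.14, 7.76 and 10.96 with IFN-γ and 2.57, 3.61 and 2.61 with both (interaction -2.73 ± 0.39, adjusted p = 0.00245). Tnfsf10, the death ligand TRAIL, read 0.257, 0.133 and 0.147 FPKM in Control, 0.931 and 0.757 with Pam3CSK4, 5.37, 5.92 and 5.37 with IFN-γ and 2.497, 2.59 and 3.01 with both (interaction -3.27 ± 0.33, adjusted p = 0.000476). Pam3CSK4 alone raised Il27 (1.12 ± 0.30) and Tnfsf10 (2.22 ± 0.26). Where IFN-γ followed Pam3CSK4, both genes were lower than with IFN-γ alone (-1.62 ± 0.25 and -1.05 ± 0.21). Anpep, aminopeptidase N, read 0.534, 0.308 and 1.04 FPKM in Control, 2.21 and 2.33 with Pam3CSK4, 23.02, 27.96 and 25.3 with IFN-γ and 4.02, 4.14 and 4.44 with both (interaction -4.47 ± 0.42, adjusted p = 0.000346). Clec5a, a C-type lectin receptor of myeloid cells, overlapped between Pam3CSK4 and both agents, with 69.8, 76.8 and 75.6 FPKM with IFN-γ, 19.05 and 16.9 with Pam3CSK4 and 19.5, 18.8 and 20.8 with both (interaction -2.16 ± 0.24, adjusted p = 0.000835). Hk3, a hexokinase, overlapped between IFN-γ and both agents, with 225, 254 and 256 FPKM with IFN-γ and 238, 236 and 255 with both, although Pam3CSK4 alone raised it (1.24 ± 0.17, adjusted p = 0.000418); its interaction was -1.26 ± 0.23 (adjusted p = 0.00782). Ch25h, which makes 25-hydroxycholesterol, was highest with Pam3CSK4 at 899 and 1063 FPKM, against 302, 245 and 274 with IFN-γ, 536, 559 and 706 with both and 142, 150.2 and 103 in Control (interaction -1.74 ± 0.29, adjusted p = 0.00503). Gas7 spread widely within groups, at 0.547, 3.53 and 2.22 FPKM with IFN-γ and 3.16, 8.001 and 8.61 with both, and its interaction was -5.14 ± 0.93 (adjusted p = 0.00743).

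Of 22 inflammasome and cell death genes, 6 were less than additive (Zbp1, Tnfsf10, Bcl2a1a, Bcl2a1d, Casp4 and the adaptor Pycard) and Bcl2l11, which encodes the death inducer BIM, was more than additive (1.52). Over all genes tested, 8.01% were called in each direction. The list's median interaction was -0.08. The count of 6 was 9 without Control replicate 3 and 4 without Pam3CSK4 replicate 1, and the 9 other fits without a library gave 5 or 6; the more than additive count was 2 without Control replicate 3 or IFN-γ replicate 2.

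**Figure D4:**
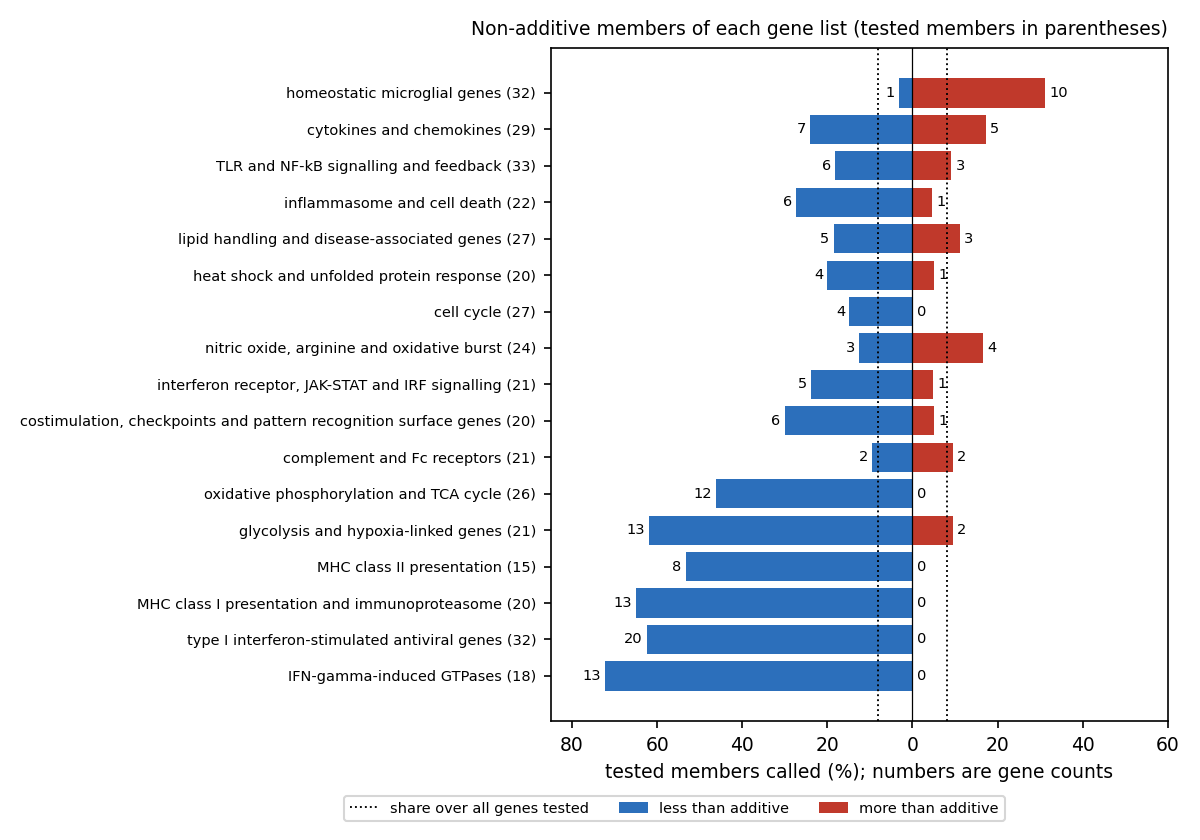
Bars give, for each of 17 gene lists, the percentage of tested members that were less than additive (blue, left) or more than additive (red, right), with the number of genes at the bar ends; dotted lines mark the 8.01% of all tested genes called in each direction. The antigen presentation, GTPase and antiviral lists and oxidative phosphorylation have no member on the right, and the homeostatic list has 10 on the right and 1 on the left.

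The last class had a combined mean below both single means. Ccl22, a chemokine for regulatory T cells, read 0.239, 0.126 and 0.06699 FPKM in Control, 3.06 and 1.34 with Pam3CSK4, 11.7, 19.1 and 19.5 with IFN-γ and 1.29, 0.905 and 0.553 with both. Each agent alone raised Ccl22, and all 3 combined libraries lay below every library of both single treatments. The step below Pam3CSK4 was not called by edgeR for Ccl22 (-1.15 ± 0.48, adjusted p = 0.202). Its interaction was -8.11 ± 0.74 (adjusted p = 0.00031), between -8.70 and -7.41 without each library in turn. Icosl, the ligand of the T cell costimulator ICOS, read 16.3, 13.9 and 9.79 FPKM in Control, 46.8 and 41.7 with Pam3CSK4, 37.2, 47.7 and 44.5 with IFN-γ and 29.7, 28.6 and 26.3 with both (interaction -2.32 ± 0.31, adjusted p = 0.00177). Ccl6, a macrophage chemokine, read 114, 141 and 81.3 FPKM in Control, 87.8 and 63.9 with Pam3CSK4, 179.7, 203 and 188 with IFN-γ and 37.7, 31.3 and 32.1 with both (interaction -1.91 ± 0.33, adjusted p = 0.00618). Icosl stayed above Control after both agents, while Ccl6 fell below every Control library. For Icosl too, edgeR did not call the difference between both agents and Pam3CSK4 (-0.54 ± 0.23, adjusted p = 0.202). Lrmp read 12.8, 13.8 and 8.88 FPKM in Control, 18.3 and 14.9 with Pam3CSK4, 16.6, 17.6 and 17.8 with IFN-γ and 4.95, 4.7 and 4.85 with both (interaction -2.31 ± 0.27, adjusted p = 0.00111). Spns2, which exports sphingosine 1-phosphate, read 4.59, 5.75 and 4.61 FPKM in Control, 3.48 and 3.19 with Pam3CSK4, 7.46, 7.74 and 8.06 with IFN-γ and 1.56, 1.44 and 1.13 with both (interaction -1.90 ± 0.23, adjusted p = 0.00112). Pdgfb, a growth factor for mural cells, changed with neither agent past the threshold and fell with both: 47.7, 42.8 and 33.9 FPKM in Control, 36.2 and 36.5 with Pam3CSK4, 44.98, 47.1 and 46.6 with IFN-γ and 15.6, 14 and 15.5 with both (interaction -1.42 ± 0.22, adjusted p = 0.00384).

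Lipid genes as a list were mixed, with 3 of 27 more than additive (Abca1, Fabp5 and Ctsl) and 5 less than additive (among them Ch25h, Nr1h3, Abcg1 and Lgals3), and a median of -0.09, or 0.04 without Control replicate 3. The background was 8.01% of all genes tested in each direction. Without Control replicate 3 each count was 9, without Pam3CSK4 replicate 2 they were 2 and 1, and without Control replicate 2, Pam3CSK4 replicate 1, IFN-γ replicate 2 or 3, or any combined replicate the less than additive count was 2 or 3.

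Glycolytic genes were mostly less than additive. Tpi1 (chr6:124810586-124814296), triose-phosphate isomerase, read 84.6, 80.5 and 108 FPKM in Control, 177 and 180.4 with Pam3CSK4, 166, 168 and 189 with IFN-γ and 142, 128 and 146 with both (interaction -1.31 ± 0.15, adjusted p = 0.000885). Every combined library lay above Control and below both single treatments. Of 21 glycolysis and hypoxia-linked genes, 13 were less than additive, 8 of them with a combined mean below both single means, and Hif1a (0.77) and Egln3 (0.70) were more than additive. In each direction, 8.01% of all genes tested were called. The 13 included Gapdh (-0.63), Aldoa (-0.70), Pgk1 (-0.93), Eno1 (-0.53), Pkm (-0.85), Ldha (-1.11) and the glucose transporter Slc2a1 (-0.78). The list's median was -0.69, and the less than additive count was 15 without Control replicate 3 and 8 without Pam3CSK4 replicate 2 or combined replicate 1; the more than additive count was 0 without Pam3CSK4 replicate 2 and 1 without Control replicate 2, Pam3CSK4 replicate 1, IFN-γ replicate 1 or 3, or combined replicate 1 or 2.

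Genes of respiration were called in the same direction. Atp5b, the catalytic β subunit of ATP synthase, read 52.3, 51.3 and 82.4 FPKM in Control, 95.2 and 97.4 with Pam3CSK4, 99.6, 107 and 109.8 with IFN-γ and 81.8, 89.1 and 95.8 with both (interaction -0.89 ± 0.21, adjusted p = 0.0202). Its call was lost without either Pam3CSK4 replicate, IFN-γ replicate 3 or combined replicate 1 (adjusted p up to 0.0843). Cox5a, a subunit of complex IV, read 101, 89.9 and 102 FPKM in Control, 213 and 203 with Pam3CSK4, 172, 173 and 195 with IFN-γ and 185, 211 and 206 with both (interaction -0.93 ± 0.15, adjusted p = 0.00393). Of 26 genes of oxidative phosphorylation and the TCA cycle, 12 were less than additive and none more than additive, and 16 of the 26 had a combined mean below both single means and none above both. Over all genes tested, 31.4% lay below both and 16.0% above both. The list's median interaction was -0.47. The count was 1 without Pam3CSK4 replicate 2, 4 without Pam3CSK4 replicate 1 or combined replicate 1, 5 without IFN-γ replicate 3, 6 without combined replicate 3, 7 without combined replicate 2 and 8 without Control replicate 2 or IFN-γ replicate 2.

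Ccnd1, cyclin D1, read 47.95, 47.1 and 40.3 FPKM in Control, 81.9 and 77.4 with Pam3CSK4, 104, 96.5 and 97.01 with IFN-γ and 53.8, 52.8 and 64.8 with both (interaction -1.60 ± 0.19, adjusted p = 0.00105). All 3 combined libraries lay under every single-treatment library and above every Control library. The step below Pam3CSK4 was not called by edgeR for Ccnd1 (-0.37 ± 0.14, adjusted p = 0.145). Mcm6, a subunit of the replicative helicase, read 6.004, 5.65 and 10.8 FPKM in Control, 18.7 and 20.3 with Pam3CSK4, 11.7, 8.32 and 7.94 with IFN-γ and 7.42, 8.097 and 12.1 with both (interaction -1.42 ± 0.36, adjusted p = 0.0285). Control replicate 3 was the highest Control library for Mcm6, and the call was lost without Control replicate 1 or 2, either Pam3CSK4 replicate, IFN-γ replicate 1 or combined replicate 1 or 2 (adjusted p up to 0.108). Of 27 tested cell cycle genes, Ccnd1, Mcm6, Mcm3 (-0.76) and Pcna (-0.86) were less than additive and none more than additive; the less than additive count was 11 without Control replicate 3, 1 without Pam3CSK4 replicate 2 and 2 without Control replicate 2 or combined replicate 1 or 2. Hspa5, the chaperone BiP of the endoplasmic reticulum, read 119, 129.6 and 169 FPKM in Control, 207 and 204 with Pam3CSK4, 189, 183 and 182 with IFN-γ and 177, 170.2 and 163 with both (interaction -0.68 ± 0.14, adjusted p = 0.0113, and 0.0555 without Pam3CSK4 replicate 2). Of 20 heat shock and unfolded protein response genes, Hspa5, Hsp90b1, Hspe1 and Xbp1 were less than additive, all below both single treatments, and Sesn2 was more than additive. The share called in each direction was 8.01% over all genes tested. The 4 became 9 without Control replicate 3, none without Pam3CSK4 replicate 2 and 1 or 2 in the 9 other fits without a library; the single more than additive call was absent in 8 of the 11.

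Nos2, Socs3 and Ptgs2 had combined means several times both single means but no interaction called by edgeR with all libraries, and Control replicate 3 stood above the other Controls in each. Nos2 (chr11:78920787-78960254), inducible nitric oxide synthase, read 0.0635, 0.211 and 4.68 FPKM in Control, 44.1 and 54.6 with Pam3CSK4, 46.4, 37.9 and 38.8 with IFN-γ and 528, 504 and 557 with both. The combined mean was 10.7 times the higher single mean, the largest such ratio among tested genes with a group mean of at least 5 FPKM. With all libraries the interaction was -1.29 ± 1.39 (adjusted p = 0.557); without Control replicate 3 it was -4.70 (adjusted p = 5.15e-05), less than additive on the log2 scale, and on the linear scale the combined mean exceeded the Control mean plus both single changes by 441 FPKM. Socs3, a feedback inhibitor of cytokine receptors, read 2.23, 1.15 and 10.8 FPKM in Control, 69.1 and 81.5 with Pam3CSK4, 83.8, 67.5 and 75.1 with IFN-γ and 257, 263 and 259 with both. Its interaction was -2.27 ± 0.87 (adjusted p = 0.106) with all libraries, -2.709 in limma-voom (adjusted p = 0.035) and -3.64 (adjusted p = 8.53e-05) without Control replicate 3. Ptgs2, cyclooxygenase 2, which was chosen after its values were seen, read 0.241, 0.135 and 144 FPKM in Control, 128 and 98.6 with Pam3CSK4, 65.7, 39.9 and 29.96 with IFN-γ and 511, 465 and 415 with both. Its interaction turned from 2.02 ± 2.52 (adjusted p = 0.616) to -5.80 (adjusted p = 0.000136) without Control replicate 3. The summed mural and fibroblast markers were 2262 FPKM in that library and under 4 in the other 2 Controls; their part in these 3 interactions was not tested.

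Il6, Il12b, Il10 and Arg1 varied within groups or lay near 0 in some. Il6 read 0.488, 0.464 and 7.22 FPKM in Control, 8.79 and 7.26 with Pam3CSK4, 3.46, 0.0786 and 0.0162 with IFN-γ and 18.8, 19.04 and 13.8 with both, so that the combined libraries were the highest while Control replicate 3 and IFN-γ replicate 1, both with mural and fibroblast transcripts, stood above their groups. The interaction of Il6 was 2.26 ± 1.96 (adjusted p = 0.464), -0.13 (adjusted p = 0.964) without Control replicate 3, 6.73 (adjusted p = 0.0482) without IFN-γ replicate 1 and 4.48 (adjusted p = 0.000325) without the 3 libraries that held these transcripts. Il12b, the p40 chain shared by IL-12 and IL-23, read 0.118, 0.04499 and 0.338 FPKM in Control, 261 and 108 with Pam3CSK4, 0, 0.647 and 0.471 with IFN-γ and 227, 177 and 80.5 with both. The ranges after Pam3CSK4 and after both overlapped, and the interaction was -1.33 ± 1.29 (adjusted p = 0.512). Il10 had no count in the IFN-γ libraries, so no interaction is given; it read 15.1 and 17.4 FPKM with Pam3CSK4 and 1.44, 1.65 and 2.54 with both, a difference of -3.01 ± 0.46 (adjusted p = 0.00695). Arg1, the arginase that competes with Nos2 for arginine, read 0.676, 0.257 and 1.703 FPKM in Control, 1.296 and 5.19 with Pam3CSK4, 15.8, 1.34 and 1.62 with IFN-γ and 9.84, 18.4 and 20.1 with both, and was not called (-0.50 ± 1.44, adjusted p = 0.841). Clic5, a gene of the chloride intracellular channel family chosen after its values were seen, was close to additive in log2: it read 0, 0.0323 and 0.01903 FPKM in Control, 0.0838 and 0.121 with Pam3CSK4, 9.42, 7.26 and 6.19 with IFN-γ and 37.6, 38.8 and 36.3 with both. Its combined mean was 4.93 times the IFN-γ mean and its interaction -0.15 ± 0.42 (adjusted p = 0.849).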

How the data were processed

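Total RNA of 11 microglia samples was sequenced. Read counts per gene were deposited with FPKM values in 1 table. The submitters' processing notes name the mm10 build with Cuffdiff, Cufflinks 2.1.1 and TopHat2 2.1.0; how reads were counted, and whether by strand, is not stated there. Dividing the deposited count by the library total and a constant of each gene gave its deposited FPKM, within a relative 3.17e-06 over 6617 genes.

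The 10938 genes with at least 1 FPKM in at least 2 libraries were fitted with edgeR 4.0.16 in R 4.3.3 (quasi-likelihood, TMM scaling, 4 group means, all 11 libraries). The interaction and the single comparisons were tested at a Benjamini-Hochberg adjusted p under 0.05, and the method was tested on simulated data. FPKM values were averaged per group.

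The rule for this set of comparisons and the gene lists were chosen with earlier results of these data known, and the lists are described by counts. Named genes were called with and without Control replicate 3, with a group mean of at least 5 FPKM and at least 10 counts in every group, and were the most extreme by sign and position, the most extreme list members, and a panel fixed by name; other list members, and Ptgs2 and Clic5, were named with their values seen. Some genes of the rule are not reported here. Alternatives were DESeq2 1.42.0, limma 3.58.1, other scalings and filters, a replicate block and leaving out libraries. Counts of 15033702 to 20321017 per library limit the precision for genes of few counts.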

Additional observations from a re-analysis of the deposited data

Results flagged for a closer look

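In 18 of the named genes, 1 agent had effects past the threshold in opposite directions without and with the other agent; the interaction in edgeR's fit is the test of that difference. Pam3CSK4 raised 10 of them in the absence of IFN-γ and lowered them in its presence. Their interactions were -8.11 for Ccl22, -4.47 for Anpep, -4.28 for Socs1, -4.25 for Iigp1, -3.27 for Tnfsf10, -3.09 for Cxcl9, -2.73 for Il27, -2.32 for Icosl, -1.60 for Ccnd1 and -1.31 for Tpi1. For Ccl22 the Pam3CSK4 effect went from 3.91 ± 0.57 alone (log2 ± standard error, adjusted p = 0.000596) to -4.20 ± 0.48 where IFN-γ followed (adjusted p = 0.000169). Pam3CSK4 lowered S1pr1 and Procr alone and raised them in the presence of IFN-γ, with interactions of 4.02 and 2.49; for Procr the effect went from -0.45 ± 0.16 (adjusted p = 0.0455) to 2.04 ± 0.14 (adjusted p = 8.87e-06).

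IFN-γ lowered Il1b, Il1a and Hes1 alone and raised them after Pam3CSK4, with interactions of 5.36, 2.48 and 4.09. The IFN-γ effect on Il1b went from -3.54 ± 0.25 (adjusted p = 7.46e-06) to 1.82 ± 0.26 (adjusted p = 0.00251). IFN-γ raised Lrmp, Ccl6 and Spns2 alone and lowered them after Pam3CSK4, with interactions of -2.31, -1.91 and -1.90.

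Over all 1752 called genes, Pam3CSK4 raised 110 alone and lowered them where IFN-γ followed, and did the reverse for 76. IFN-γ raised 34 alone and lowered them after Pam3CSK4, and did the reverse for 33. The threshold applied to each of the 2 effects, and these comparisons share libraries with the interaction.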

How the results depend on the processing

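Leaving out 1 library at a time gave 307 to 1656 more than additive genes and 357 to 1576 less than additive genes. The more than additive genes with the combined group above both single treatments numbered 102 to 434, the less than additive genes above both 64 to 180 and those below both 131 to 660. The lowest of each came without Pam3CSK4 replicate 2 and the highest without Control replicate 3. Without the 3 libraries that held transcripts of mural cells and fibroblasts there were 1601 more and 1499 less than additive genes, of which 484 lay above both and 630 below both. With no filter on low values, 441 genes were more than additive, 149 of them above both. DESeq2, limma, the other scalings and the stricter filter gave 1535 to 2466 calls in all, each of the 5 counts within 1.5 times.

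The replicate block gave 1344 calls. The labels do not tie replicate numbers to an animal or culture, so the numbers were not taken as pairs. Correlations between the deviations of same-numbered libraries ran from -0.719 for Control and IFN-γ replicate 1 to 0.715 for Control and combined replicate 3. They cannot decide on pairing, because the 3 libraries with mural and fibroblast transcripts correlated whatever their number. Control replicate 3 and IFN-γ replicate 1, for example, gave 0.81. With a replicate block only Sesn2 among the named genes lost its call (0.732, adjusted p = 0.0775).

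Arg1, not called at -0.502, turned to 0.455 in limma-voom, 0.732 and 0.411 in limma with 1 and 0.1 added to FPKM, and 0.537 without the 3 libraries, and ranged from -1.334 to 1.526 without 1 library. Il6, not called at 2.258, ranged from -0.126 to 6.729. Gas7 lost its call in limma-voom (adjusted p = 0.063) and limma with 1 added (0.0664), and Baiap2l2 in limma-voom (0.0766), where Socs3 gained one (-2.709, 0.035). Sesn2 also lost its call with library totals (0.0573), no filter (0.0784) and limma on FPKM (0.0576 and 0.0567), Mcm6 with library totals (0.0504) and Clec4n with no filter (0.0904). The causes were not tested. With 2 Pam3CSK4 libraries, leaving out either rests on a lone library that is assumed to vary like the other groups, and depth limits genes of few counts.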
